A study of Mus musculus with 6 samples.

Results

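The collagen family was examined in mouse fallopian tube organoids as all genes whose symbol has the form Col, number, a, number. 70 array probes mapped to such a symbol through the RefSeq transcript accession given for each spot, and they covered 44 genes, all 44 collagen symbols in the RefSeq table, of 23787 named genes. Each of 6 organoid cultures had its total RNA hybridised to a single Agilent array labelled with Cy3. The cultures were Pik3ca/Trp53 tumour-derived organoids (Pik3caH1047R with Trp53 loss, regrown from a subcutaneous adenocarcinoma) and the Pik3ca/Trp53 organoids of the same genotype before inoculation, Apc/Trp53 tumour-derived organoids (Apc580D with Trp53 loss, regrown from a subcutaneous lesion with the histology label cyst) and the Apc/Trp53 organoids before inoculation, organoids with Trp53 loss alone, and control organoids from Trp53flox/flox mice that carried the vector pLKO.1. The product of Trp53 is the tumour suppressor p53, Pik3caH1047R is an activated catalytic subunit of PI3-kinase, and Apc is an antagonist of Wnt signalling. All cultures came from the fallopian tube of female mice and were grown in serum-free medium with CHIR-99021, an inhibitor of GSK3, together with EGF, Noggin, R-spondin1, Jagged-1 and Y27632. The labels give neither the age of the mice, the number of animals or clones behind a culture, nor how Trp53 was removed. The design names 3 pairs of organoids before and after growth in the animal; 2 pairs are described, and the other was not analysed here.

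Collagens are secreted or membrane proteins with long repeats rich in glycine and proline, and their chains wind around each other into a triple helix. Type IV collagen forms the network of the basement membrane on which epithelia rest, type VII anchors that membrane to the stroma, type XVII is a transmembrane collagen of hemidesmosomes, and types I and III form the thick fibrils made mainly by fibroblasts. In the oviduct the epithelium contributes to its own basement membrane and the fibrillar collagens are made mainly in the stroma.

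Levels are log2 signal minus the 75th percentile of the same array, so that 0 marks that percentile. A signal is called dim where the scanner software did not flag it as well above background. The dimmest signals so flagged lay at -3.64 in Pik3ca/Trp53 and at -4.30 in Apc/Trp53, with the other arrays between these values. Where a gene was dim on 1 of 2 arrays compared, the dim signal was raised to that limit and the fold is given as "at least". Each culture has a single array, so a difference is a description of 2 arrays without replication, and 2-fold (a log2 difference of 1) serves as a fixed size for description. Within an array, the median SD between copies of the same probe was 0.0389 to 0.0810 on the log2 scale, which covers technical error only. Different probes of a gene were averaged over those above background on either array. In bulk RNA, fewer cells of a type and less RNA per cell cannot be told apart.

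The arrays shared 1 slide and 1 scan. Both tumour-derived cultures and control lay in slide row 2 and the other cultures in row 1, so row and the contrasts tumour-derived minus source and Trp53 loss minus control cannot be told apart. Both Pik3ca/Trp53 cultures lay in slide column 2, both Apc/Trp53 cultures in column 1, and Trp53 loss and control in column 4. Column thus cannot be told apart from contrasts of a double mutant with Trp53 loss, with control or with the other double mutant. Between 45.4% (Pik3ca/Trp53) and 51.0% (Apc/Trp53 tumour-derived) of all probes were well above background. Trp53, read by 1 probe, was dim in Pik3ca/Trp53, Apc/Trp53 tumour-derived and Trp53 loss organoids, and had levels of -1.05 in Pik3ca/Trp53 tumour-derived, -2.99 in Apc/Trp53 and 1.46 in control organoids. The position of that probe relative to the deleted exons is not given in the sources used here. Pik3ca, read by 1 probe, had levels of 0.36 in Pik3ca/Trp53 tumour-derived and 2.55 in Pik3ca/Trp53 organoids. Whether host cells contributed to the RNA on the Pik3ca/Trp53 tumour-derived array, and so to the collagen values there, was not tested. All 10 epithelial markers examined, among them Epcam, Cdh1 and Krt8, were above background on every array. Of 7 oviduct epithelium markers, 6 or 7 were. From source to tumour-derived organoids, 1 of 7 was at least 2-fold higher in the Pik3ca pair (Foxj1, 2.12-fold). There 2 were lower (Wt1 at least 74.8-fold, Sox17 6.80-fold), against 11.3% higher and 9.45% lower of all genes. In the Apc pair 2 of 6 were higher and 0 lower, against 9.28% and 6.62%. Wt1 was also dim in control and both Apc cultures.

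Of the 44 collagen genes, 28 rose above background on 1 array or more, 9 of them on all arrays, 7 on 2 to 5 arrays and 12 on exactly 1. The 9 genes seen everywhere were Col4a1, Col4a2, Col4a5, Col7a1, Col8a1, Col9a2, Col16a1, Col18a1 and Col20a1. Of the 12 genes seen on a single array, 5 were seen in Pik3ca/Trp53 tumour-derived organoids (Col1a1, Col1a2, Col8a2, Col11a1 and Col12a1), 2 in Apc/Trp53 tumour-derived organoids (Col11a2 and Col23a1), 1 in Apc/Trp53 (Col6a3), 1 in Trp53 loss (Col6a2) and 3 in control organoids (Col4a3, Col4a4 and Col27a1). The same split over all named genes is not given here, so these counts are not read as particular to collagens. The number of collagen genes above background was 19 in Pik3ca/Trp53 tumour-derived, 12 in Pik3ca/Trp53, 15 in Apc/Trp53 tumour-derived, 14 in Apc/Trp53, 14 in Trp53 loss and 14 in control organoids. In that order these were 43.2%, 27.3%, 34.1%, 31.8%, 31.8% and 31.8% of the 44 genes. Of all named genes, 59.8%, 56.8%, 60.4%, 59.5%, 57.9% and 58.1% were above background on the same arrays. The 16 genes dim on all arrays included the stromal fibril chain Col3a1 and the type V chains Col5a1, Col5a2 and Col5a3. The chains of the cartilage fibril Col2a1 and of hypertrophic cartilage Col10a1 were dim as well, as were Col13a1, Col15a1, Col19a1, Col22a1, Col24a1, Col25a1, Col28a1, Col6a4, Col6a5 and Col6a6.

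**Figure D1:**
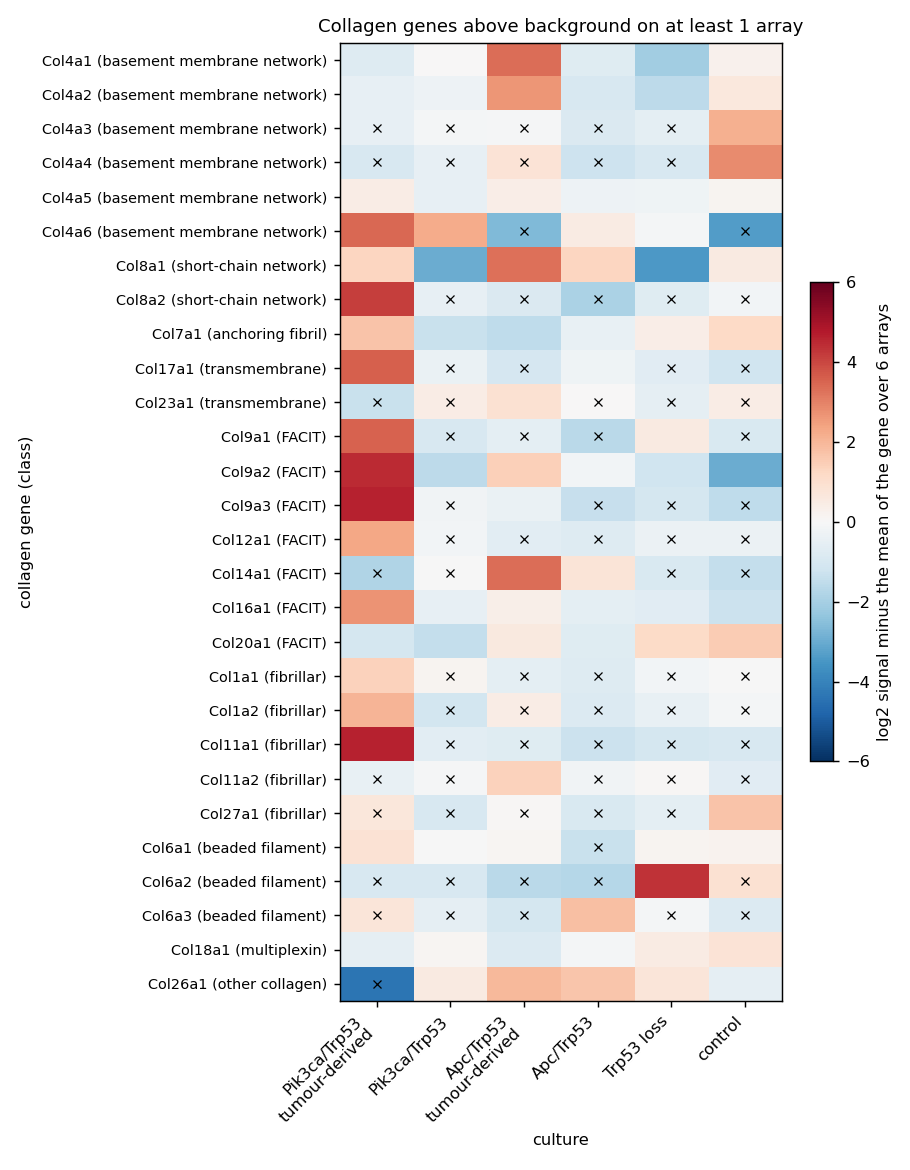
Collagen genes above background on at least 1 array (rows, with their class) in the 6 cultures (columns, 1 array each), coloured by log2 signal minus the mean of the gene over the 6 arrays, with a cross where all probes of the gene were dim. The Pik3ca/Trp53 tumour-derived column holds most of the dark red cells (Col9a2, Col9a3, Col11a1, Col8a2), and Col4a1 and Col4a2 are reddest in Apc/Trp53 tumour-derived organoids.

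After growth in the animal, 10 of 20 measured collagens were at least 2-fold higher in Pik3ca/Trp53 tumour-derived than in Pik3ca/Trp53 organoids, against 11.3% of all 14727 genes, and 1 was at least 2-fold lower, against 9.45%. In the Apc pair, 7 of 18 were at least 2-fold higher, against 9.28% of all 14888 genes, and 2 were lower, against 6.62%. Trp53 loss organoids had 4 of 17 collagens at least 2-fold higher and 4 lower than control organoids, against 4.43% and 5.7% of all 14361 genes. Pik3ca/Trp53 organoids had 3 of 14 higher and 3 lower than Trp53 loss organoids, against 7.95% and 6.18% of 14237 genes, and Apc/Trp53 organoids had 4 of 17 higher and 3 lower, against 3.55% and 4.47% of 14463. The median log2 difference of the measured collagens was 1.11 in the Pik3ca pair and 0.89 in the Apc pair, with medians of all genes of -0.06 and -0.05. The other medians were -0.38 for Trp53 loss against control (0.07 over all genes), -0.23 for Pik3ca/Trp53 against Trp53 loss (0.00) and 0.10 for Apc/Trp53 against Trp53 loss (0.00). A gene enters these shares and medians when it is above background on either array, which favours genes that differ, and they are no test.

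Against control, Pik3ca/Trp53 tumour-derived organoids had 9 of 23 measured collagens at least 2-fold higher and 5 lower, against 12.9% and 10.9% of all genes. Pik3ca/Trp53 organoids had 3 of 15 higher and 4 lower, against 9.68% and 8.12%. Apc/Trp53 tumour-derived organoids had 8 of 18 higher and 3 lower, against 11.9% and 11.7%, and Apc/Trp53 organoids had 4 of 18 higher and 5 lower, against 6.08% and 8.55%. These 4 comparisons share the control array. Between the mutants, Pik3ca/Trp53 tumour-derived had 10 of 23 higher and 7 lower than Apc/Trp53 tumour-derived organoids, against 15.1% and 12.7%, and Pik3ca/Trp53 had 1 of 15 higher and 3 lower than Apc/Trp53 organoids, against 7.31% and 4.76%.

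**Figure D2:**
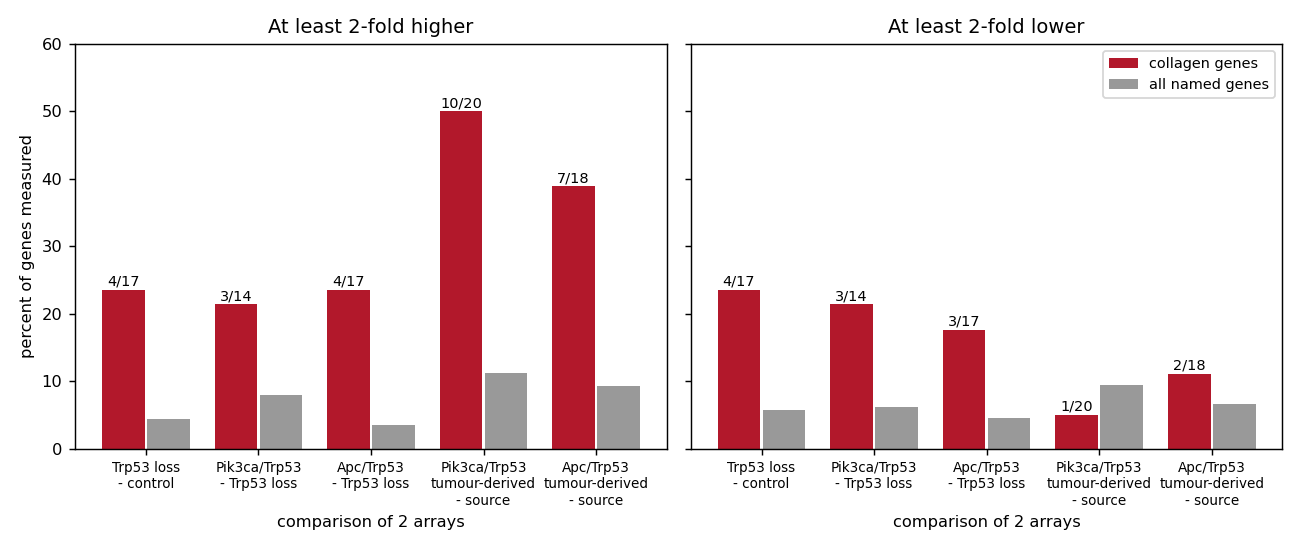
Percent of measured genes at least 2-fold higher (left) and at least 2-fold lower (right) in 5 comparisons of 2 arrays, for collagen genes (red, with counts) and all named genes (grey), with dim signals at their bound. The tallest bar is 10 of 20 collagens higher in Pik3ca/Trp53 tumour-derived than in Pik3ca/Trp53 organoids.

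Col4a1 and Col4a2, the chains of the type IV molecule found in basement membranes throughout the body, shared their highest and lowest cultures. Col4a1 had levels of -1.39 in Pik3ca/Trp53 tumour-derived, -0.62 in Pik3ca/Trp53, 2.73 in Apc/Trp53 tumour-derived, -1.38 in Apc/Trp53, -2.74 in Trp53 loss and -0.40 in control organoids. Col4a2 had levels of -1.38 in Pik3ca/Trp53 tumour-derived, -1.22 in Pik3ca/Trp53, 1.74 in Apc/Trp53 tumour-derived, -1.85 in Apc/Trp53, -2.46 in Trp53 loss and -0.27 in control organoids. For both genes Apc/Trp53 tumour-derived organoids were the highest and Trp53 loss organoids the lowest of the 6 cultures. Col4a1 was 17.2-fold and Col4a2 12.0-fold higher in Apc/Trp53 tumour-derived than in Apc/Trp53 organoids, while in the Pik3ca pair Col4a1 was 1.71-fold and Col4a2 1.12-fold lower in the tumour-derived culture. Against control organoids, Trp53 loss organoids were 5.05-fold lower in Col4a1 and 4.55-fold lower in Col4a2. The increases over Trp53 loss, for Col4a1 4.32-fold in Pik3ca/Trp53 and 2.56-fold in Apc/Trp53 organoids, and for Col4a2 2.36-fold in Pik3ca/Trp53, share that low array. Against control both genes were lower in both double mutants before inoculation, Col4a1 by a log2 difference of -0.22 in Pik3ca/Trp53 and -0.98 in Apc/Trp53, Col4a2 by -0.95 and -1.58.

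The promoter windows of this gene pair are shown because the genes lie head to head and shared their highest and lowest cultures. Each window holds the 250 bases before and 50 after the annotated start in RefSeq (GRCm38.p6), 5′ to 3′ on the strand of its gene, and capitals mark the 78 bases at chr8:11312777-11312854 that both windows share on opposite strands.
Col4a1 (chr8:11312777-11313076, minus strand): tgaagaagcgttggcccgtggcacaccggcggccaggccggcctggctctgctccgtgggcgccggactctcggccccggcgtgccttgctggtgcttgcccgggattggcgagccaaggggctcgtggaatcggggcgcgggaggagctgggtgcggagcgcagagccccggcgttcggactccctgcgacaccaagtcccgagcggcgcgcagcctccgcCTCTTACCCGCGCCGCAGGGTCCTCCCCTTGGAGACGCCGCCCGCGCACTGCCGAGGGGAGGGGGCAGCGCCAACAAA
Col4a2 (chr8:11312555-11312854, plus strand): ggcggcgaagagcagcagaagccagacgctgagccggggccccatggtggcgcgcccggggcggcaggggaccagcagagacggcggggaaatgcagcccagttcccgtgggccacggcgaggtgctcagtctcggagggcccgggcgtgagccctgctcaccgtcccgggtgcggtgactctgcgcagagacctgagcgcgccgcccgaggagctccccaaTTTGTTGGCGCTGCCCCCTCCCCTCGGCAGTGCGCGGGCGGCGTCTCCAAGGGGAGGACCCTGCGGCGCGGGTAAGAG
The GC content was 74.0% for Col4a1 and 73.7% for Col4a2, with 37 and 33 CpG dinucleotides, against medians of 52.7% and 7 over all 32851 windows of the table. Neither window holds the TATA box, searched as TATAAA on both strands and held by 13.6% of all windows. Both hold the CCAAT box once, searched by its letters on both strands and held by 37.4% of all windows. The GC box, searched as GGGCGG on both strands and held by 35.7% of all windows, occurs once in the Col4a1 and 3 times in the Col4a2 window. A match is a run of letters and not a shown binding site.

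The other type IV chains build the networks of specialised basement membranes. Col4a3 and Col4a4, which together with Col4a5 form the network of the kidney glomerulus, were above background in control organoids alone, at levels of -3.42 and -2.36. Against control, the bound for Col4a4 was 3.08-fold lower in Trp53 loss organoids and 2.42-fold to 3.85-fold lower in the other 4 cultures. Col4a3 lay near the background limit in control organoids, and its bounds against control were 1.16-fold to 1.84-fold. Col4a5 was nearly even, with levels of 2.02 in Pik3ca/Trp53 tumour-derived, 0.97 in Pik3ca/Trp53, 2.01 in Apc/Trp53 tumour-derived, 1.20 in Apc/Trp53, 1.16 in Trp53 loss and 1.66 in control organoids at 1 probe, and a second probe moved in parallel. Over the mean of both probes it was 1.97-fold higher in Pik3ca/Trp53 tumour-derived and 1.65-fold higher in Apc/Trp53 tumour-derived organoids than in their sources; in the Pik3ca pair the brighter probe alone differed by 2.06-fold and the other by 1.89-fold. Col4a6, a partner of Col4a5 in smooth muscle and epithelial basement membranes, had levels of 0.58 in Pik3ca/Trp53 tumour-derived, -0.65 in Pik3ca/Trp53, -2.36 in Apc/Trp53 and -2.99 in Trp53 loss organoids, and was dim in Apc/Trp53 tumour-derived (-5.53) and control organoids (-6.19). It was 5.08-fold higher in Pik3ca/Trp53 than in Trp53 loss organoids, 2.34-fold higher in Pik3ca/Trp53 tumour-derived than in Pik3ca/Trp53 organoids, and at least 3.42-fold lower in Apc/Trp53 tumour-derived than in Apc/Trp53 organoids. Between the tumour-derived cultures, Col4a6 was at least 26.2-fold higher in Pik3ca/Trp53, while Pik3ca/Trp53 was 17.4-fold lower in Col4a1 and 8.69-fold lower in Col4a2. Col4a5 and Col4a6 lie head to head on the X chromosome too, but their windows are 842 bases apart.

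**Figure D3:**
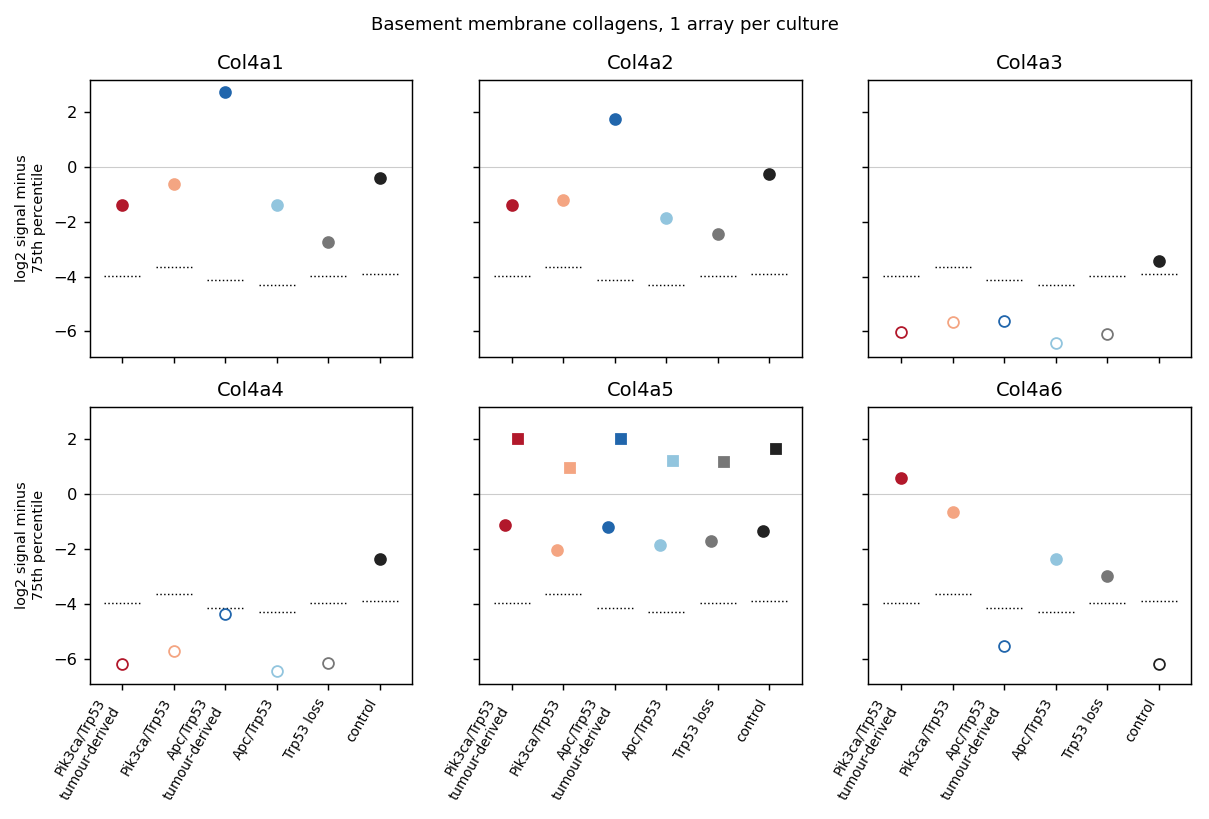
Levels of the 6 type IV collagen genes (log2 signal minus the 75th percentile of the array) in each culture, 1 point per probe and array; open points were dim, and dotted lines mark the dimmest signal well above background on that array. Col4a1 and Col4a2 share their highest and lowest cultures, Col4a3 and Col4a4 have filled points in control organoids alone, and Col4a6 is filled in 4 of the 6 cultures.

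Col8a1, a short-chain collagen that forms hexagonal networks beneath endothelia and in the eye, had the widest swings among the collagens seen on all arrays other than Col9a2. Its levels were 0.99 in Pik3ca/Trp53 tumour-derived, -3.32 in Pik3ca/Trp53, 2.98 in Apc/Trp53 tumour-derived, 0.97 in Apc/Trp53, -3.78 in Trp53 loss and 0.23 in control organoids. Pik3ca/Trp53 and Trp53 loss organoids were close to the background limit, and the other 4 cultures were above the 75th percentile of their array. Trp53 loss organoids were 16.2-fold below control in this gene, which was also 26.9-fold higher in Apc/Trp53 than in Trp53 loss organoids, while Apc/Trp53 was 1.66-fold above control. Pik3ca/Trp53 was 1.38-fold above Trp53 loss and 11.7-fold below control. Both tumour-derived cultures were higher than their source, 19.8-fold in the Pik3ca pair and 4.02-fold in the Apc pair. Its partner chain Col8a2 was above background in Pik3ca/Trp53 tumour-derived organoids alone, at a level of -0.46, at least 9.05-fold above Pik3ca/Trp53 organoids. The Col8a1 window is shown, with capitals on its 4 GC box matches, because its gene differed by over 2-fold in the same direction in both pairs. It holds neither a TATA box nor a CCAAT box, and its GC content is 60.3%.
Col8a1 (chr16:57754688-57754987, minus strand): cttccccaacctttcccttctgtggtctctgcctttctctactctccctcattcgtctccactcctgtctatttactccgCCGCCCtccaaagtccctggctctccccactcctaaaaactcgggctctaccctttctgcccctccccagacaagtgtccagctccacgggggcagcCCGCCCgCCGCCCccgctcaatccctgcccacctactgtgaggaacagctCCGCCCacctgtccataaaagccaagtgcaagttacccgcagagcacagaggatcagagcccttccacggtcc

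Col7a1, which forms the anchoring fibrils beneath stratified epithelium, had levels of 1.33 in Pik3ca/Trp53 tumour-derived, -1.70 in Pik3ca/Trp53, -1.92 in Apc/Trp53 tumour-derived, -0.81 in Apc/Trp53, 0.00 in Trp53 loss and 0.82 in control organoids. It was 8.19-fold higher in Pik3ca/Trp53 tumour-derived than in Pik3ca/Trp53 organoids and 2.16-fold lower in Apc/Trp53 tumour-derived than in Apc/Trp53 organoids, so the pairs moved in opposite directions. Before inoculation, Pik3ca/Trp53 was 3.25-fold below Trp53 loss, and Apc/Trp53 was 1.75-fold below it. Col17a1, the hemidesmosomal collagen of basal epithelial cells, was read by 2 probes. At 1 of them the level was 0.20 in Pik3ca/Trp53 tumour-derived organoids and dim in the other 5 cultures; at the other it was -2.15 in Pik3ca/Trp53 tumour-derived, -3.90 in Apc/Trp53 and dim in the remaining 4. Over both probes Col17a1 was at least 6.33-fold higher in Pik3ca/Trp53 tumour-derived than in Pik3ca/Trp53 organoids, with an SD of 1.66 log2 units between the probes. Its highest levels at both probes were thus on the same array as that of Col7a1.

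In type IX collagen all 3 chains passed 2-fold in the Pik3ca pair. This collagen is built from Col9a1, Col9a2 and Col9a3 and is known as a cover of cartilage fibrils and as part of the vitreous of the eye. Col9a2 had levels of 4.19 in Pik3ca/Trp53 tumour-derived, -1.89 in Pik3ca/Trp53, 1.13 in Apc/Trp53 tumour-derived, -0.49 in Apc/Trp53, -1.50 in Trp53 loss and -3.28 in control organoids. Control was the lowest of the 6 cultures, and both tumour-derived cultures were the highest. The difference was 67.8-fold in the Pik3ca pair and 3.07-fold in the Apc pair, and Trp53 loss organoids were 3.42-fold above control. Col9a3 had levels of 1.35 and -1.23 at its 2 probes in Pik3ca/Trp53 tumour-derived organoids and was at least 13.0-fold above Pik3ca/Trp53, where both probes were dim. In Apc/Trp53 tumour-derived organoids Col9a3 was above background at 1 probe (-3.71), close to the limit.

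Col9a1 was read differently by its 2 probes, which carry the same transcript accession. At 1 probe the level was 3.39 in Pik3ca/Trp53 tumour-derived organoids and dim in the other 5 cultures, at least 130.1-fold higher than in Pik3ca/Trp53 organoids. The other probe was dim in Pik3ca/Trp53 tumour-derived organoids (-6.09) and was above background in Trp53 loss organoids alone (-2.75), at least 2.22-fold above control. Where on the transcript these probes lie is not given in the sources used here. RefSeq annotates Col9a1 with 2 starts 17593 bases apart, and both windows are shown for that reason, with that of Col9a2, the type IX gene above background on all arrays. Capitals mark matches of any of the 3 motifs on either strand.
Col9a1, upstream start (chr1:24177360-24177659, plus strand): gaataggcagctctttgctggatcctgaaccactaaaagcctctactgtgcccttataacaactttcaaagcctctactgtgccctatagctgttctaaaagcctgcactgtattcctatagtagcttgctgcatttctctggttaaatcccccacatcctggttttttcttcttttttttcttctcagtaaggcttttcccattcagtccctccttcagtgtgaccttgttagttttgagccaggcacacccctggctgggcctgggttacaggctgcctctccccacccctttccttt
Col9a1, downstream start (chr1:24194953-24195252, plus strand): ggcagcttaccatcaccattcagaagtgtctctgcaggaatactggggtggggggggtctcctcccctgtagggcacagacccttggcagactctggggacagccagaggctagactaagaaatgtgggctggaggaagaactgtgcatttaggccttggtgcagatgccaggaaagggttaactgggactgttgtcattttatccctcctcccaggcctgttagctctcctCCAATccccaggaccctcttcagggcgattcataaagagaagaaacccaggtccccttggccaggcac
Col9a2 (chr4:121039316-121039615, plus strand): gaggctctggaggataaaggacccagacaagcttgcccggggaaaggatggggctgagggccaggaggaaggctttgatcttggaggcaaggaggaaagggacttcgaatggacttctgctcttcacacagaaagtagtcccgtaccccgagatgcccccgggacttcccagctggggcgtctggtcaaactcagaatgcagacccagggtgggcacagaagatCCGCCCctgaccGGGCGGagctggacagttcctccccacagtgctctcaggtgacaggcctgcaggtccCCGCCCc
The upstream Col9a1 window holds 0 CpG dinucleotides and none of the 3 motifs, the downstream one 1 CpG and 1 CCAAT box, and the Col9a2 window 10 CpG and 3 GC boxes. Among the 38 collagen windows of the table, for 35 genes, 5 hold a TATA box, 13 a CCAAT box and 23 a GC box.

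Col11a1, a chain of the type XI collagen that sits in the core of cartilage fibrils, was above background in Pik3ca/Trp53 tumour-derived organoids alone, at levels of 1.87 and -2.69 at its 2 probes. It was at least 9.36-fold above Pik3ca/Trp53 organoids, with an SD of 3.23 log2 units between the probes. The partner chain Col11a2 was above background in Apc/Trp53 tumour-derived organoids alone, at 1 of 2 probes (-2.79), at least 2.86-fold above Apc/Trp53 organoids. Col2a1, the main cartilage fibril chain, was dim on all arrays, including that of Pik3ca/Trp53 tumour-derived organoids. Of 13 other cartilage genes, listed after these values were seen, 5 were at least 2-fold higher and 1 lower in Pik3ca/Trp53 tumour-derived than in Pik3ca/Trp53 organoids, out of 9 measured, against 11.3% and 9.45% of all genes. The lower one was Hapln1, which encodes a link protein of cartilage matrix, at least 10.4-fold at 1 of its 2 probes. Among the higher ones were Cnmd, which encodes chondromodulin (at least 8.03-fold), Snorc (at least 6.25-fold) and Acan, which encodes aggrecan (at least 8.78-fold). Acan had levels of -0.50 in Pik3ca/Trp53 tumour-derived, -3.02 in Apc/Trp53, -0.11 in Trp53 loss and 0.05 in control organoids, and was dim in Pik3ca/Trp53 (-4.04) and Apc/Trp53 tumour-derived organoids (-5.69), so it was as high in Trp53 loss and control organoids as in the tumour-derived culture. Sox6, also among the higher ones (at least 2.60-fold), had levels of -2.26 in Pik3ca/Trp53 tumour-derived and -2.23 in control organoids. In the Apc pair 1 of 5 measured cartilage genes was higher (Comp, at least 2.65-fold) and 1 lower (Acan, at least 2.17-fold), against 9.28% and 6.62% of all genes. Matn1, Matn3, Epyc and Ucma were dim on all arrays.

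**Figure D4:**
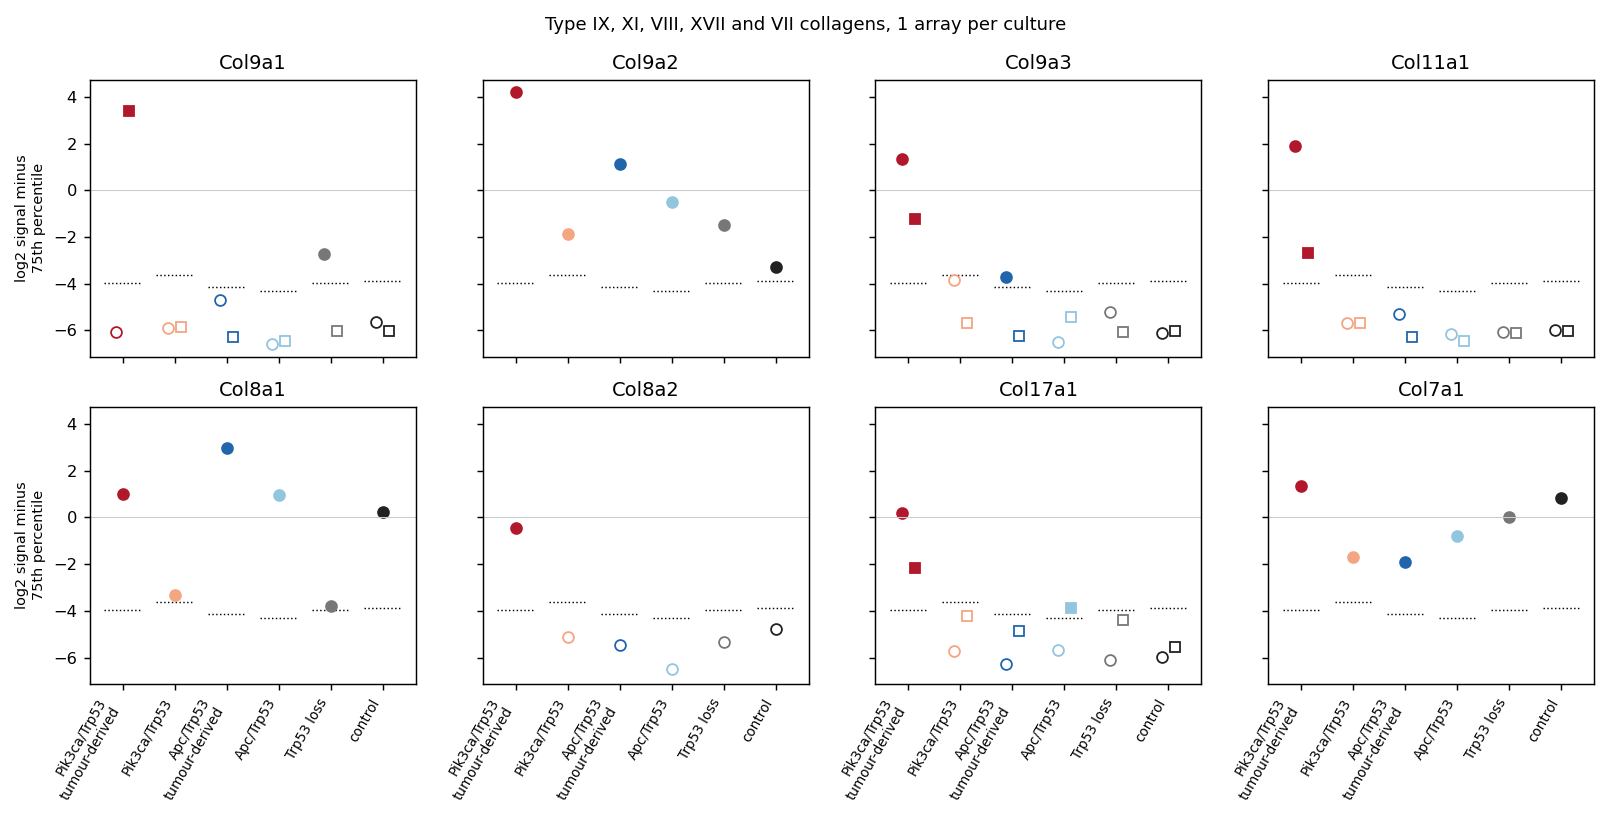
Levels of 8 collagen genes of types IX, XI, VIII, XVII and VII (log2 signal minus the 75th percentile of the array) in each culture, 1 point per probe and array; open points were dim and dotted lines mark the dimmest signal well above background. Pik3ca/Trp53 tumour-derived organoids hold the highest point in every panel except that of Col8a1, where Apc/Trp53 tumour-derived organoids reach 2.98, and the 2 probes of Col9a1 are filled in different cultures.

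The remaining FACIT genes, which encode collagens that bind to the surface of fibrils, differed in their pattern. Col16a1 had levels of 4.45 in Pik3ca/Trp53 tumour-derived, 1.29 in Pik3ca/Trp53, 2.13 in Apc/Trp53 tumour-derived, 1.17 in Apc/Trp53, 1.06 in Trp53 loss and 0.45 in control organoids at 1 probe, and its other probe was dim on all arrays. It was 8.95-fold higher in Pik3ca/Trp53 tumour-derived and 1.95-fold higher in Apc/Trp53 tumour-derived organoids than in their sources. Col14a1 was above background in the Apc cultures alone, at -0.21 in Apc/Trp53 tumour-derived and -2.80 in Apc/Trp53 organoids, a 6.02-fold difference. Col20a1 had levels of -1.66 in Pik3ca/Trp53 tumour-derived, -2.04 in Pik3ca/Trp53, -0.02 in Apc/Trp53 tumour-derived, -1.30 in Apc/Trp53, 0.56 in Trp53 loss and 0.94 in control organoids. Both double mutants before inoculation were below Trp53 loss, by 6.05-fold in Pik3ca/Trp53 and 3.61-fold in Apc/Trp53, and Apc/Trp53 tumour-derived organoids were 2.42-fold above their source. Col12a1, a fibril-associated collagen of dense connective tissue, was above background in Pik3ca/Trp53 tumour-derived organoids at 1 of 2 probes (-3.33), at least 1.24-fold above the source.

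**Figure D5:**
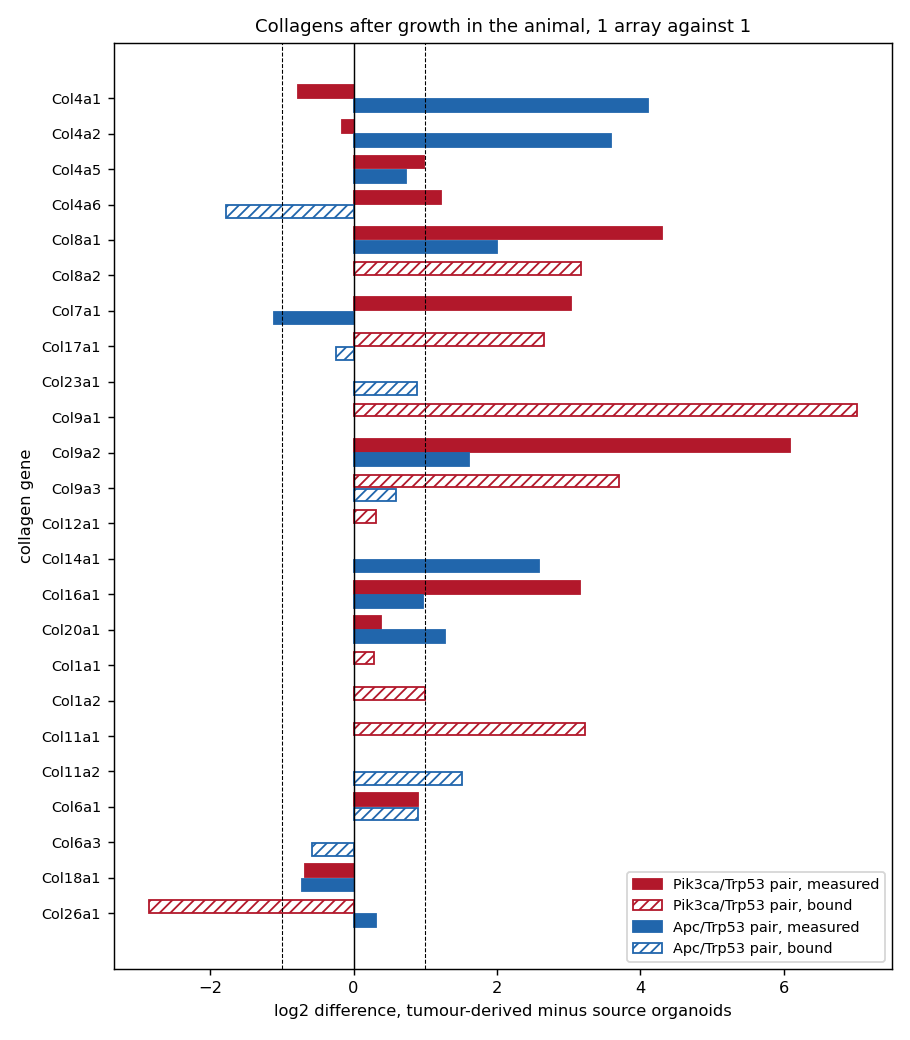
Log2 difference between each tumour-derived culture and its source organoids for every collagen measured in a pair, red for the Pik3ca/Trp53 pair and blue for the Apc/Trp53 pair, with hatched bars for lower bounds of genes dim on 1 array and dashed lines at 2-fold. Col8a1 and Col9a2 pass 2-fold to the right in both pairs, while Col4a6 and Col7a1 pass it in opposite directions.

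Type VI collagen forms beaded filaments from Col6a1, Col6a2 and Col6a3. Col6a1 stayed near the background limit, with levels of -2.67 in Pik3ca/Trp53 tumour-derived, -3.57 in Pik3ca/Trp53, -3.41 in Apc/Trp53 tumour-derived, -3.36 in Trp53 loss and -3.35 in control organoids, and it was dim in Apc/Trp53 (-4.86). Col6a2 was above background in Trp53 loss organoids alone, at -0.44 at 1 of 2 probes. It was at least 10.8-fold above control there, and Pik3ca/Trp53 and Apc/Trp53 organoids were at least 9.14-fold and 14.5-fold below Trp53 loss. These 3 differences share the single Trp53 loss array. Col6a3 was above background in Apc/Trp53 organoids alone (-3.56 at 1 of 2 probes). No culture had all 3 chains above background.

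Col18a1, a basement membrane proteoglycan and the source of endostatin, had levels of 3.78 in Pik3ca/Trp53 tumour-derived, 4.45 in Pik3ca/Trp53, 3.49 in Apc/Trp53 tumour-derived, 4.21 in Apc/Trp53, 4.80 in Trp53 loss and 5.16 in control organoids. Control was the highest, and in each of the 5 comparisons the difference was negative and under 2-fold. Against control, Pik3ca/Trp53 tumour-derived was 2.60-fold and Apc/Trp53 tumour-derived 3.18-fold lower. Col26a1, a short collagen described in testis and ovary, was read alike by 2 probes, while another was dim on all arrays. Its levels at 1 of the 2 were -1.25 in Pik3ca/Trp53, 0.18 in Apc/Trp53 tumour-derived, -0.15 in Apc/Trp53, -1.09 in Trp53 loss and -2.34 in control organoids, and it was dim in Pik3ca/Trp53 tumour-derived organoids (-6.26). It was at least 7.21-fold lower in Pik3ca/Trp53 tumour-derived than in Pik3ca/Trp53 organoids, and 2.39-fold higher in Trp53 loss than in control organoids. Col26a1 was the single collagen of the Pik3ca pair that was at least 2-fold lower.

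The stromal chains Col1a1 and Col1a2 came above background in Pik3ca/Trp53 tumour-derived organoids alone and stayed low there, Col1a1 at -3.42 and -3.28 at 2 of 3 probes and Col1a2 at -2.64. Their bounds against Pik3ca/Trp53 organoids were 1.22-fold and 1.99-fold. Some markers of fibroblasts were higher in the same culture. Of 14 such markers, 6 were above background in Pik3ca/Trp53 tumour-derived and 4 in Pik3ca/Trp53 organoids, with summed signals of 31.4 and 14.9 times the 75th percentile. In the Apc pair 6 were above background in Apc/Trp53 tumour-derived and 3 in Apc/Trp53 organoids, with sums of 34.7 and 23.6, and the sums were 35.4 in Trp53 loss and 26.0 in control organoids. Postn, which encodes the matrix protein periostin, was at least 89.0-fold higher in Pik3ca/Trp53 tumour-derived than in Pik3ca/Trp53 organoids, and Vim, which encodes vimentin, at least 8.89-fold; in the Apc pair Pdgfra was at least 7.69-fold and Vim at least 4.09-fold higher, and Fbln2 was 2.06-fold lower. In all, 4 of 6 measured fibroblast markers were at least 2-fold higher and 0 lower in the Pik3ca pair (11.3% and 9.45% of all genes), and 2 of 6 were higher and 1 lower in the Apc pair (9.28% and 6.62%). Among the 4 was Pdgfra, whose 2.23-fold is a mean of 2 probes that went opposite ways, with an SD of 2.94 log2 units. In Pik3ca/Trp53 tumour-derived organoids 1 of these probes had a level of -0.40 and the other was dim. In Pik3ca/Trp53 organoids the first was dim and the other had a level of -2.94. The defining fibroblast genes Dcn, Lum, Dpt, Fap, Mfap5, Thy1 and Twist2 were dim on every array. Of 7 smooth muscle markers 3 or 4 were above background on each array, and Des, Lmod1 and Myh11 were dim on all. Acta2 was at least 3.47-fold higher in the Pik3ca pair, with an SD of 1.81 log2 units between its 2 probes, and Cnn1 at least 2.06-fold higher in the Apc pair, 1 of 3 and 1 of 4 measured, with 0 lower. Of 10 endothelial markers 3 to 5 were above background, with Cldn5, Emcn, Tek and Tie1 dim on all arrays. Of 5 measured in each pair, 1 was higher (Erg, at least 7.28-fold) and 2 lower (Vwf 5.29-fold, Egfl7 4.97-fold) in the Pik3ca pair, and 1 higher (Vwf, 2.77-fold) and 1 lower (Cdh5, 5.42-fold) in the Apc pair. Of 10 leukocyte markers 5 or 6 were above background, with Adgre1, Cd79a and Tyrobp dim on all. In the Pik3ca pair 1 of 6 was higher (Itgam, 2.01-fold) and 1 lower (Laptm5, at least 4.12-fold), and in the Apc pair 1 of 7 was higher (Ptprc, at least 3.40-fold) and 2 lower (Cd68 4.60-fold, Laptm5 at least 3.35-fold). Beside the smooth muscle, endothelial and leukocyte counts, 11.3% of all genes were higher and 9.45% lower in the Pik3ca pair. In the Apc pair 9.28% were higher and 6.62% lower. With so few genes measured, 1 or 2 calls in a list are not read as a result. The part of other cell types in the collagen differences was not tested.

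Genes that fold, mature and bind collagen were counted in the same way. The shares of all genes to set beside each count are 11.3% higher and 9.45% lower in the Pik3ca pair, 9.28% and 6.62% in the Apc pair, 4.43% and 5.7% for Trp53 loss against control, 7.95% and 6.18% for Pik3ca/Trp53 against Trp53 loss, and 3.55% and 4.47% for Apc/Trp53 against Trp53 loss. Of 22 genes for collagen folding and modification, 21 were measured, and 4 were at least 2-fold higher and 4 lower in Pik3ca/Trp53 tumour-derived than in Pik3ca/Trp53 organoids (median 0.03, and -0.06 over all genes), and 4 higher and 0 lower in the Apc pair (median 0.32, and -0.05 over all genes). Serpinh1, the collagen chaperone HSP47 of the endoplasmic reticulum, had levels of 4.27 in Pik3ca/Trp53 tumour-derived, -0.31 in Pik3ca/Trp53, 3.30 in Apc/Trp53 tumour-derived, 0.57 in Apc/Trp53, -0.89 in Trp53 loss and 0.35 in control organoids. It was 23.8-fold higher in the tumour-derived culture of the Pik3ca pair and 6.59-fold higher in that of the Apc pair, so both tumour-derived cultures stood above the other 4. Fkbp10, a prolyl isomerase that acts on procollagen, was 3.76-fold and 7.17-fold higher in the same comparisons and 8.91-fold higher in Trp53 loss than in control organoids. Among the 4 genes lower in the Pik3ca pair were Colgalt2 (at least 6.43-fold) and Colgalt1 (2.86-fold, with an SD of 0.70 log2 units between its 2 probes). In the other comparisons of this list, 3 were higher and 1 lower for Trp53 loss against control, 1 and 0 for Pik3ca/Trp53 against Trp53 loss, and 2 and 1 for Apc/Trp53 against Trp53 loss.

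Of 17 genes for collagen maturation and crosslinking, 13 were measured in the Pik3ca pair, with 4 at least 2-fold higher and 1 lower in the tumour-derived culture (11.3% and 9.45% of all genes), and 11 in the Apc pair, with 3 higher and 4 lower (9.28% and 6.62%). Sparc, a collagen-binding matrix protein, was at least 30.5-fold higher in Pik3ca/Trp53 tumour-derived and at least 7.41-fold higher in Apc/Trp53 tumour-derived organoids. Lox, a lysyl oxidase that crosslinks collagen, was at least 3.39-fold higher in the Pik3ca pair, and its relative Loxl2, which acts on type IV collagen, 9.46-fold higher in the Apc pair, with an SD of 1.52 log2 units between its 2 probes. Another relative, Loxl4, was 5.36-fold lower in the Apc pair, with an SD of 0.14 log2 units between its 3 probes. Pcolce2 was 3.73-fold lower in the Apc pair and at least 2.72-fold lower in the Pik3ca pair. Of this list 1 was higher and 1 lower for Trp53 loss against control (9 measured), 1 and 4 for Pik3ca/Trp53 against Trp53 loss (10 measured), and 2 and 1 for Apc/Trp53 against Trp53 loss (11 measured). Of 10 collagen receptors 8 were measured in the Pik3ca pair, with 1 at least 2-fold higher and 1 lower, near the shares of all genes (Itga11 at least 3.03-fold higher, Itga1 at least 2.12-fold lower), and none of 6 measured passed in either direction in the Apc pair. Trp53 loss against control also had 1 receptor in each direction, the integrin chains Itga1 (3.22-fold higher) and Itga2 (2.33-fold lower). Pik3ca/Trp53 against Trp53 loss had 1 higher and 1 lower, and Apc/Trp53 against Trp53 loss had 0 higher and 1 lower.

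Of 17 other basement membrane components 14 were measured in each pair. In Pik3ca/Trp53 tumour-derived organoids 4 were at least 2-fold higher and 4 lower than in Pik3ca/Trp53 organoids, where 11.3% and 9.45% of all genes were. In the Apc pair 3 were higher and 0 lower, where 9.28% and 6.62% of all genes were. Lama1, the alpha chain of laminin-111, was 10.6-fold higher in Apc/Trp53 tumour-derived than in Apc/Trp53 organoids, and Nid1, which links laminin to type IV collagen, was at least 10.4-fold higher in Pik3ca/Trp53 tumour-derived than in Pik3ca/Trp53 organoids at 1 of 2 probes. The 4 lower in the Pik3ca pair were Npnt (2.44-fold), Lamc1 (2.43-fold), Hspg2 (2.14-fold) and Lamb2 (2.07-fold). In the Trp53 loss comparison with control, 1 of 13 was higher (Lama1, at least 3.08-fold) and 2 were lower, Lama3 by 3.88-fold and the proteoglycan gene Agrn by 2.01-fold. Of all genes, 4.43% were higher and 5.7% lower there. The Agrn value is a mean of 2 probes with an SD of 1.19 log2 units between them, since the bright probe had levels of 7.19 in Trp53 loss and 7.36 in control organoids and the weak one -3.44 in Trp53 loss and -1.59 in control organoids. Of the 13 measured in each, 0 were higher and 2 lower for Pik3ca/Trp53 against Trp53 loss (7.95% and 6.18% of all genes). For Apc/Trp53 against Trp53 loss, 0 were higher and 1 lower (3.55% and 4.47% of all genes).

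Fits over several arrays gave no collagen with an adjusted p under 0.05. The paired fit, with genotype as the block, set both tumour-derived cultures against both source cultures, and by limma with Benjamini-Hochberg adjustment called 0 of 14219 genes (0% higher and 0% lower), with 552 at an unadjusted p under 0.05. In simulated data of the same size this fit made no calls, so its count of 0 carries no weight. Of its 15 collagens 3 had an unadjusted p under 0.05. They were Col8a1 (log2 difference 3.16, SE 0.74), Col6a1 (1.17, SE 0.32) and Col9a3. Col8a1 and Col6a1 were higher in both tumour-derived cultures, with an adjusted p of 0.996 by limma. Col6a1 lay near the background limit and was dim in Apc/Trp53 organoids (-4.86), a value the fit used as measured. With that signal at its bound Col6a1 was at least 1.86-fold higher in the Apc pair, and it was 1.87-fold higher in the Pik3ca pair. Col9a3 was dim in both source cultures and passed the filter through the tumour-derived ones, so the filter fixed its direction and its p is not read here. The other fit set the 3 cultures with Trp53 loss before inoculation against the single control and called 0 of 15025 genes (0% in each direction), with 1262 at an unadjusted p under 0.05, 7 of them among its 20 collagens. Of these 7, Col4a3, Col4a4 and Col27a1 were above background in control organoids alone, and Col4a6 and Col17a1 were dim in control organoids, so the filter fixed their direction and their p is not read here. Col9a2 (log2 difference 1.98, SE 0.65) and Col16a1 (0.72, SE 0.23) were above background on all 4 arrays and higher in each of the 3 cultures than in control, with limma adjusted p of 0.562 and 0.559. The fits used signals as measured, and had 1 and 2 residual degrees of freedom, so a missed threshold does not show that values were alike. In the fit against control, cultures of 3 genotypes stand in as replicates of Trp53 loss. Its SE and p therefore rest on the spread between genotypes, and the spread of the control was not measured.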

How the data were processed

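Total RNA of 6 organoid cultures was labelled with Cy3 and hybridised to 1 array each, per the labels' protocols. The deposited scanner files hold intensity per spot, after background subtraction in the scanner software; the submitters' processing notes name Agilent Feature Extraction 11.0.1.1. Arrays were not scaled to each other, per the file headers. The deposited value table covers 2047 probes on a log2 scale, 7 of them of 6 collagen genes. Column differences matched those of the scanner values apart from an offset (r and slope of 1); its centring and choice of probes are not stated, and its column medians ran from -0.32 (Apc/Trp53) to 0.15 (Pik3ca/Trp53).

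Control and outlier-flagged spots were left out, spots of a probe were averaged on the log2 scale, no spot was saturated, and each array's 75th percentile was subtracted. 34566 of 56605 probes were named through RefSeq accessions, and 22039 were not used. A gene's difference is the mean over those of its probes that were well above background on either array, with dim signals set to the dimmest signal so flagged on their array; values dim on both arrays were left out. The 5 comparisons and the 2 limma fits (adjusted p under 0.05 over all genes tested) used all named genes, the paired one on genes well above background on 2 or more of its 4 arrays, the other on those so flagged on 1 or more. The comparisons and fits were tested on simulated data, where the paired fit made no calls. The members and lists were chosen with earlier results of these data known. 6 further comparisons, against control and between the mutants, are given as counts and values. Named are collagens at least 2-fold apart in at least 1 comparison, Col4a1, Col4a2, Col8a1, Col17a1 and Col6a2 with the chains of their heterotrimers, collagens seen on any array, and the list members with the largest differences; the cartilage list, and genes chosen from it, came after the values were seen. Since the scanner files hold no mean signal, normexp used the median signal with the median background (offset 50). Promoter sequences are those of RefSeq (GRCm38.p6). The software was limma 3.58.1 in R 4.3.3, with pandas 2.3.3, numpy 2.4.6 and matplotlib 3.10.9 in Python 3.11.15.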

Additional observations from a re-analysis of the deposited data

Results flagged for a closer look

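Col7a1 and Col4a6 were at least 2-fold apart in opposite directions in the pairs of tumour-derived and source organoids. The log2 difference of Col7a1 was 3.03 in Pik3ca/Trp53 tumour-derived minus Pik3ca/Trp53 and -1.11 in Apc/Trp53 tumour-derived minus Apc/Trp53 organoids. That of Col4a6 was 1.22 in the Pik3ca pair and -1.78, a bound, in the Apc pair. With 1 array per culture the difference between the pairs was not tested. Groups of 1 array allow no check for single outlying samples.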

How the results depend on the processing

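Of 41 collagen differences of at least 2-fold, recomputed to give 329 values under the alternatives, 312 kept their direction and stayed at least 2-fold. Another 14 kept their direction but came under the threshold (sizes 0.30 to 0.95 on the log2 scale), and 3 reversed. Sizes did change among the 312, as for Col8a1 in Trp53 loss minus control (-4.01, and -2.19 with normexp). Some values could not change, so these counts are no measure of robustness. The 1.5-fold threshold and leaving out genes whose probes disagree alter no value. The probe with the highest signal, or a filter of probes above background on all 6 arrays, alters none for genes with 1 measured probe. normexp background correction accounted for 12 of the 14, scaling to the median for 1 (Col20a1 in the Apc pair) and the control array in place of the Trp53 loss array for 1 (Col8a1 in Apc/Trp53). That replacement gave the 3 reversals, Col4a1 at -0.22 and Col4a2 at -0.95 in Pik3ca/Trp53, and Col4a1 at -0.98 in Apc/Trp53; by construction it removes the low Trp53 loss array. Counts of collagens at least 2-fold apart moved by over 1.5 times as follows. For Trp53 loss minus control (8) the count was 4 with normexp, 4 with probes well above background on all 6 arrays and 5 in the deposited value table. For Pik3ca/Trp53 minus Trp53 loss (6) it was 2 in the value table. For Apc/Trp53 minus Trp53 loss (7) it was 3 with normexp, 4 with probes above background on all arrays, 3 in the value table and 13 at a 1.5-fold threshold. For the Pik3ca pair (11) it was 4 with probes above background on all arrays and 3 in the value table, and for the Apc pair (9) it was 3 in the value table and 15 at 1.5-fold. The value table holds 6 collagen genes and the stricter filter leaves 9, which bounds those counts; the cause under normexp was not tested. Leaving out genes whose probes disagree by over 2 log2 units, an alternative chosen after seeing the data, gave 8 in the Pik3ca pair.

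Scaling to the median moved the median difference of all genes, from signals as measured, to 0.23, -0.18 and -0.37. These are for Trp53 loss minus control, the Pik3ca pair and the Apc pair, in that order. The medians of collagens, with dim signals at their bound, moved to -0.22, 0.98 and 0.57. In the Apc pair the split of calls became 6 higher and 3 lower, against 7 and 2. The paired fit, which made no calls in simulated data either, called 0 collagens in its 6 alternatives, with no replicate block among them (0 called, 2 at an unadjusted p under 0.05). The fit of 3 Trp53-loss cultures called 1, Col4a4, under quantile normalization (limma adjusted p of 0.0465; 0.174 to 0.576 for the lowest collagen under the other settings run; Col4a4 was above background in control alone, so the filter fixed its direction) and 0 with each Trp53-loss array left out in turn. Leaving out an array of the paired fit leaves no residual degrees of freedom beside the block and was not run. The arrays cannot rank genes near the background limit, such as Col4a3, Col6a1 and Col1a1.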
